A study of Mus musculus with 8 samples.

Results

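The 9 genes C1qa, C1qb, C1qc, C1s1, C3, C4b, Serping1, C3ar1 and C5ar1 of the complement system were followed through mouse hearts. They were chosen by name, with earlier results of these data known, and all 9 were found among the 25929 genes of the expression table. The hearts came from wild-type mice (WT, C57BL/6) and from fat-1 littermates (Fat1), which carry an n-3 fatty acid desaturase of Caenorhabditis elegans that turns n-6 into n-3 polyunsaturated fatty acids. The promoter that drives the transgene is not given in the sources used here. The mice were 3 months old at surgery. Transverse aortic constriction (TAC) narrows the aorta with a suture so that the heart pumps against a raised pressure, here for 8 weeks, and sham mice had the chest opened with no suture tied. Genotype and surgery gave 4 groups with 2 RNA-sequencing libraries each (Fat1-TAC, WT-TAC, Fat1-Sham, WT-Sham), from ventricular tissue per the labels and from the whole heart per the methods. Levels are in FPKM, which divides a gene's fragments by a transcript length and by library size. The order of different genes thus depends on the length used for each, which equalled that of an annotated transcript for 12.6% of genes. The labels call the 2 libraries of a group independent but do not name the animals, so each error below measures the spread between these libraries.

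Complement is a cascade of proteases and of fragments that mark cells for removal. In its classical arm C1q, built of the chains encoded by C1qa, C1qb and C1qc, binds antibody, dying cells or debris. The protease C1s, encoded by C1s1, is then switched on and cuts C4, encoded in the mouse by C4b, and the pieces help to form the enzyme that cuts C3, the protein on which all arms of complement meet. Serping1 encodes the C1 inhibitor, which blocks C1s and its partner C1r. C3ar1 and C5ar1 encode G protein-coupled receptors for the small peptides released when C3 and C5 are cut, and are found mainly on myeloid cells. Plasma complement is made for the most part in the liver, whereas in tissues macrophages are the known source of C1q, and fibroblasts and other stromal cells also make C1s, C3, C4 and the C1 inhibitor.

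In GENCODE annotation of GRCm38, the genome build named in the submitters' processing notes, all 9 are protein-coding genes on the minus strand. The 3 C1q genes lie side by side on chromosome 4, with C1qb at chr4:136880129-136886187, C1qc at chr4:136889804-136893065 and C1qa at chr4:136895917-136898803, and together they span 18675 bases. C1s1 (chr6:124530345-124542359) and C3ar1 (chr6:122847138-122856161) share chromosome 6. C4b (chr17:34728380-34743882) and C3 (chr17:57203970-57228136) share chromosome 17. Serping1 lies at chr2:84765387-84775444 and C5ar1 at chr7:16246743-16259540.

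The 250 bases before the RefSeq start are printed for 4 genes. C1qb and C1qc were taken because their levels ran closest together. C3ar1 was the other gene with a RefSeq promoter whose Fat1 and WT libraries were apart, and C3 had the highest mean FPKM. Each is in GRCm38.p6 coordinates, minus strand, 5′ to 3′, and capitals mark the matches to the motifs named after them.
C1qb, chr4:136886201-136886450: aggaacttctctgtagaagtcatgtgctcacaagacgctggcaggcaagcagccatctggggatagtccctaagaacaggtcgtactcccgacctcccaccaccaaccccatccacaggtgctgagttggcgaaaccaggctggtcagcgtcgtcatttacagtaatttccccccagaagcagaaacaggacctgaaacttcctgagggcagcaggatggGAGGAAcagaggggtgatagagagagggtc
C1qc, chr4:136892915-136893164: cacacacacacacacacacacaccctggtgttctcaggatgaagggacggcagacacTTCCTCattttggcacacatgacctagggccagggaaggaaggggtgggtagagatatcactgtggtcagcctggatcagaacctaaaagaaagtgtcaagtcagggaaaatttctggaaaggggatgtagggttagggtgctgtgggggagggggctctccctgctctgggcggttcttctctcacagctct
C3ar1, chr6:122856158-122856407: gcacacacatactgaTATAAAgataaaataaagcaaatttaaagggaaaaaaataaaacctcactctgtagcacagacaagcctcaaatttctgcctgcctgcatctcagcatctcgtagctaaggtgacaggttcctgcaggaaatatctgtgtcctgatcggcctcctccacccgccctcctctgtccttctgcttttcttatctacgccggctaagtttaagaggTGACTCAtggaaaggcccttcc
C3, chr17:57228137-57228386: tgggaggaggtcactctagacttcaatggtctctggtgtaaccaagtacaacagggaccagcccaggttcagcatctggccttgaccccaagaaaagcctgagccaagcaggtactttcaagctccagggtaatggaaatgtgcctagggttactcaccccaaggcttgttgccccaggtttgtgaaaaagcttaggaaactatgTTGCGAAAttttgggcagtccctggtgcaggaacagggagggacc
Motifs were searched on both strands from 250 bases before to 50 bases after the start, in 32851 RefSeq promoters. GAGGAA, the core bound by PU.1 of myeloid cells, began at -30 in C1qb and stood as its reverse complement TTCCTC at -193 in C1qc, and 28.3% of all promoters held it. TTGCNNAA, a C/EBP-type motif, began at -45 in C3, and 10.8% of promoters held it. TGACTCA, the AP-1 motif, began at -22 in C3ar1 and was held by 5.2% of promoters. TATAAA, held by 13.6%, began at -235 in C3ar1 and 15 bases after the start in C3. The ISRE of interferon signalling (3.44% of promoters) and TTCNNNGAA of STAT factors (8.3%) had no match in these 4 windows. The 2 windows of the genes that ran closest together thus shared the GAGGAA core, on opposite strands, and no other motif searched. A match describes letters only, and binding was not measured.

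The libraries held between 14163994 and 21218331 fragments, as recovered from the FPKM steps. WT-TAC1 stood apart: the sum of 6 thymocyte markers was 1344 FPKM there and 0.264 to 1.27 FPKM in the other 7 libraries, and the sum of 8 cardiomyocyte markers was 25254 FPKM against 46020 to 61029 FPKM. Lung epithelium markers summed to 1494 FPKM in WT-TAC1, 3750 FPKM in WT-TAC2 and 82.4 FPKM in Fat1-Sham1, and to at most 0.897 FPKM elsewhere. B and plasma cell markers summed to 393, 217 and 213 FPKM in WT-TAC1, WT-TAC2 and Fat1-TAC2 and to at most 10.7 FPKM elsewhere. Both WT-TAC libraries thus carried RNA of other tissues. For the 9 genes, WT-TAC against WT-Sham and Fat1-TAC against WT-TAC are given with and without WT-TAC1. Without it the group rests on WT-TAC2, which held more lung epithelium RNA. For the other complement genes, markers and correlations, results without WT-TAC1 are not given, apart from counts of calls. The sum of 5 hypertrophy markers overlapped between the groups, at 1018 and 1293 FPKM in WT-Sham and 1072 and 1246 FPKM in WT-TAC. The 5 hepatocyte markers listed summed to 4.96 to 10.3 FPKM in WT and 2.59 to 6.19 FPKM in Fat1, with Ahsg the highest of them in each library and albumin, their defining marker, at 0 in 6 of the 8.

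The 9 genes covered a wide range of levels. Averaged over the 8 libraries, C3 stood at 374 FPKM, Serping1 at 94.5 FPKM, C1qa at 76.3 FPKM, C1qc at 67.9 FPKM, C1qb at 60.1 FPKM, C4b at 42.4 FPKM, C1s1 at 28.3 FPKM, C5ar1 at 4.64 FPKM and C3ar1 at 2.09 FPKM. This order held in all 8 libraries from C3 down to C1qb and from C1s1 down to C3ar1. C4b broke it, lying below C1qb in 7 of 8 libraries and above C1s1 in 6 of 8. The order depends on the lengths used, recovered as 1667 bases for C3 and 2297 bases for C4b. Their annotated transcripts had median lengths of 608 and 763 bases. C3 rested on 6655 to 19089 fragments per library, whereas C3ar1 rested on 122 to 238 and C5ar1 on 118 to 181, so counting alone gave the receptors a coefficient of variation of 6.48% to 9.21% in a library.

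**Figure D1:**
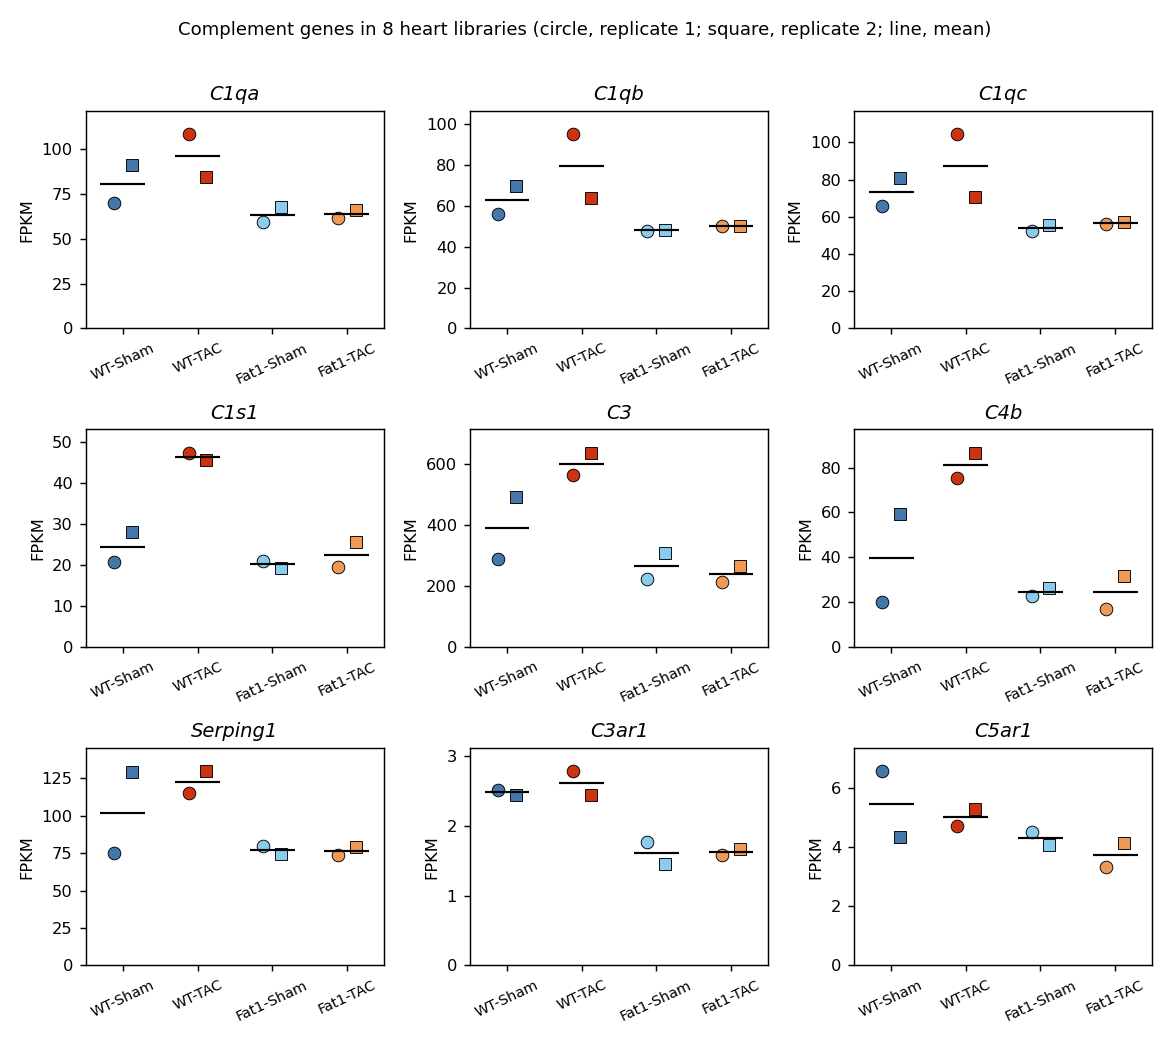
FPKM (linear axes from 0) of the 9 complement genes in the 4 groups, with a circle for replicate 1, a square for replicate 2 and a line at the mean of the 2. C1qa, C1qb, C1qc and C3ar1 have all 4 Fat1 libraries below all 4 WT libraries, whereas C1s1, C3 and C4b have both WT-TAC libraries above the other 6.

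The C1q chains moved as a unit. C1qb was at 55.9 and 69.7 FPKM in WT-Sham, 95.2 and 63.9 FPKM in WT-TAC, 48.0 and 48.2 FPKM in Fat1-Sham and 49.98 and 49.99 FPKM in Fat1-TAC. C1qc was at 66.1 and 80.8 FPKM in WT-Sham, 104 and 70.6 FPKM in WT-TAC, 52.4 and 55.6 FPKM in Fat1-Sham and 56.2 and 57.1 FPKM in Fat1-TAC. C1qa was at 70.3 and 91.3 FPKM in WT-Sham, 109 and 84.7 FPKM in WT-TAC, 59.3 and 68.0 FPKM in Fat1-Sham and 61.7 and 66.3 FPKM in Fat1-TAC. For each chain WT-TAC1 was the highest library, WT-Sham and WT-TAC overlapped, and every Fat1 library lay below every WT library. The 4 Fat1 libraries were tight, with a coefficient of variation of 2.23% for C1qb against 23.8% over the 4 WT libraries. Counting alone gave 2.21% in WT-TAC1, with 2054 C1qb fragments, to 3.41% in WT-Sham1, with 862. The Fat1 libraries held 928 to 1026, so their spread was no wider than counting alone gives. The ratio of C1qc to C1qb stayed between 1.09 and 1.18 and that of C1qa to C1qb between 1.14 and 1.41 in all 8 libraries, while the sum of the chains ran from 160 to 308 FPKM.

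Macrophage markers ran with the C1q chains. The sum of 10 markers was 239 and 279 FPKM in WT-Sham, 456 and 360 FPKM in WT-TAC, 216 and 219 FPKM in Fat1-Sham and 220 and 195 FPKM in Fat1-TAC. Lyz2, which lung epithelium also makes, took most of that sum. Without it the other 9 markers summed to 67.8 to 113 FPKM in WT and 56.0 to 61.3 FPKM in Fat1 libraries, which again did not overlap. The C1q sum divided by that of the 9 markers stayed between 2.46 and 3.10 over all libraries, a 1.26-fold range, where the C1q sum itself varied 1.93-fold. In tissue RNA, fewer cells of a type and less RNA per cell cannot be told apart.

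C1s1, C3 and C4b had another pattern, with WT-TAC highest. C1s1 was at 20.8 and 28.0 FPKM in WT-Sham, 47.3 and 45.5 FPKM in WT-TAC, 20.9 and 19.3 FPKM in Fat1-Sham and 19.4 and 25.5 FPKM in Fat1-TAC. C3 was at 288 and 493 FPKM in WT-Sham, 565 and 638 FPKM in WT-TAC, 225 and 307 FPKM in Fat1-Sham and 214 and 265 FPKM in Fat1-TAC. C4b was at 20.2 and 59.5 FPKM in WT-Sham, 75.4 and 86.6 FPKM in WT-TAC, 22.5 and 26.1 FPKM in Fat1-Sham and 17.1 and 31.5 FPKM in Fat1-TAC. In all 3 genes both WT-TAC libraries exceeded the other 6, whereas WT-Sham overlapped with both Fat1 groups for C1s1 and C4b and with Fat1-Sham for C3. WT-Sham2 lay much nearer to WT-TAC than WT-Sham1 did for C3 and C4b. C4b varied most of the 9 genes, 5.06-fold between its lowest and highest library, and C3 varied 2.98-fold. The ratio of C3 to C4b ran from 7.36 in WT-TAC2 to 14.3 in WT-Sham1.

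Serping1, the inhibitor, was at 74.8 and 129 FPKM in WT-Sham, 115 and 130 FPKM in WT-TAC, 80.0 and 74.4 FPKM in Fat1-Sham and 73.8 and 79.3 FPKM in Fat1-TAC. WT-Sham2 and both WT-TAC libraries lay at 115 FPKM or more, while WT-Sham1 lay among the Fat1 libraries, which did not leave the range of 73.8 to 80.0 FPKM. The sum of 8 fibroblast markers was also highest in WT-Sham2 and both WT-TAC libraries. It was 644 and 1045 FPKM in WT-Sham, 1078 and 1069 FPKM in WT-TAC and 567 to 628 FPKM in Fat1, so WT-Sham1 lay just above all Fat1 libraries. The ratio of Serping1 to that sum stayed between 0.107 and 0.131, a 1.23-fold range. For C1s1 the ratio to the fibroblast sum ranged 1.64-fold, for C3 1.68-fold and for C4b 2.86-fold, each wider than for Serping1. The part that these markers have in the results was not tested.

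**Figure D2:**
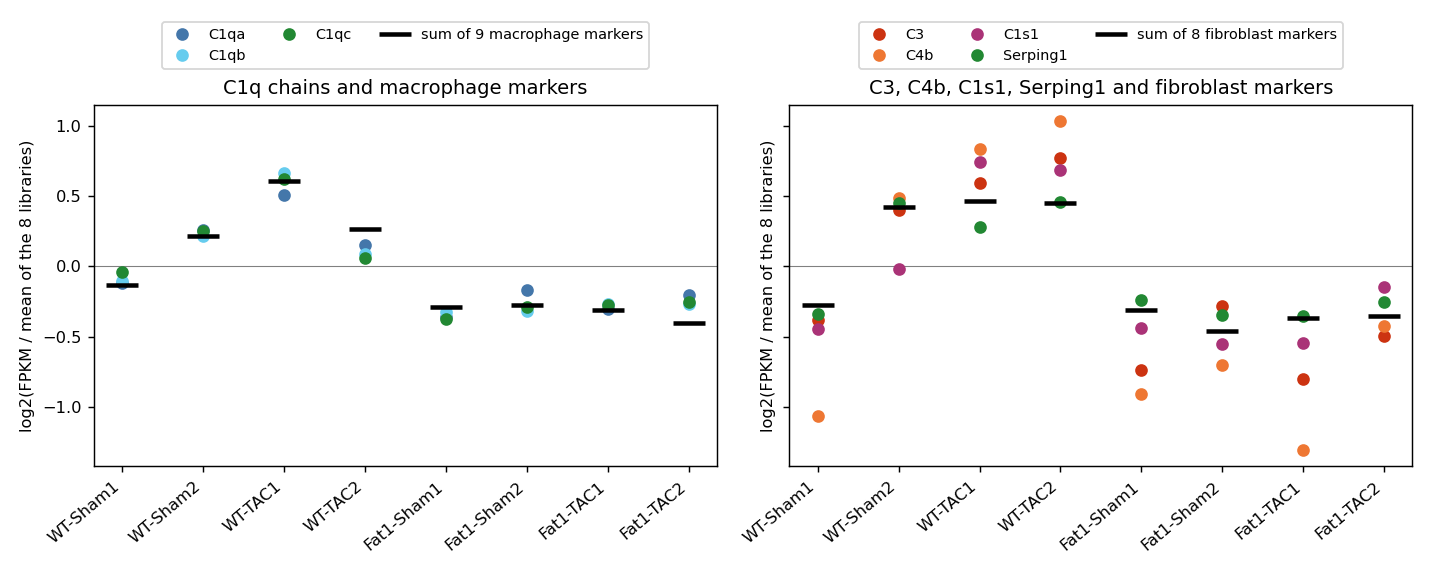
Level of each gene or marker sum in each library, as log2 of its FPKM over its mean of the 8 libraries. Left, the C1q chains (points) stay close to the sum of 9 macrophage markers (bars), and right, Serping1 stays close to the sum of 8 fibroblast markers while C3, C4b and C1s1 lie above it in both WT-TAC libraries and C4b falls farthest below it in WT-Sham1 and Fat1-TAC1.

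The receptors were low. C3ar1 was at 2.53 and 2.44 FPKM in WT-Sham, 2.79 and 2.44 FPKM in WT-TAC, 1.78 and 1.45 FPKM in Fat1-Sham and 1.59 and 1.68 FPKM in Fat1-TAC. All WT libraries were at 2.44 FPKM or more and all Fat1 libraries at 1.78 FPKM or less, with no visible step between sham and TAC. C5ar1 was at 6.58 and 4.37 FPKM in WT-Sham, 4.73 and 5.31 FPKM in WT-TAC, 4.53 and 4.10 FPKM in Fat1-Sham and 3.33 and 4.15 FPKM in Fat1-TAC, and its genotypes overlapped. The ratio of C5ar1 to C3ar1 ran from 1.70 to 2.83.

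Ordered by group mean, WT-TAC was highest for 8 of the genes and WT-Sham for C5ar1. Mean C3 was 240 ± 36.2 FPKM (SD, n = 2) in Fat1-TAC, 266 ± 58.6 in Fat1-Sham, 390 ± 145 in WT-Sham and 601 ± 51.6 in WT-TAC, and of these neighbours only WT-Sham and WT-TAC did not overlap. Mean C1s1 was 20.1 ± 1.07 FPKM (SD, n = 2) in Fat1-Sham, 22.5 ± 4.35 in Fat1-TAC, 24.4 ± 5.07 in WT-Sham and 46.4 ± 1.31 in WT-TAC, again with WT-TAC alone beyond the spread of its neighbour. Mean C1qb was 48.1 ± 0.178 FPKM (SD, n = 2) in Fat1-Sham, 49.99 ± 0.00473 in Fat1-TAC, 62.8 ± 9.76 in WT-Sham and 79.6 ± 22.1 in WT-TAC, and there the last pair overlapped.

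Whether pressure overload changed these genes in WT hearts was asked by comparing WT-TAC with WT-Sham. Complement genes were on average higher in WT-TAC for 8 of 9, led by C4b, C1s1 and C3, but 0 of 9 passed the test. Genes were called at an adjusted p under 0.1 in limma with a fold change over 1.5 or under 1/1.5, and 135 of 14442 genes tested, 0.935%, were called in this comparison. On the log2(FPKM + 1) scale the difference was 1.19 (SE 0.48, adjusted p = 0.179) for C4b, 0.92 (SE 0.20, adjusted p = 0.144) for C1s1 and 0.67 (SE 0.29, adjusted p = 0.181) for C3. For these 3 the libraries did not overlap, as held for 52.5% of all genes in the same direction. The C1q chains differed by 0.23 to 0.32, Serping1 by 0.31, C3ar1 by 0.05 and C5ar1 by -0.09, all with overlapping libraries. The median of the 9 genes was 0.31, below the 0.39 of all genes tested. Scaling the libraries by the median of ratios, 1 factor per library, brought the median of all genes to -0.02 and that of the 9 to -0.17. Under it C1s1 was still higher without overlap (0.45), while C1qa (-0.22), C1qb (-0.15), C1qc (-0.24) and C3ar1 (-0.28) became lower without overlap, where 24.2% of all genes were higher and 26.9% lower in this way. Without WT-TAC1 the C1q chains differed by -0.05 to 0.08, whereas C4b (1.29), C1s1 (0.89) and C3 (0.76) stayed close to or above their values with it. WT-TAC2, then alone in its group, held the most lung epithelium RNA of all libraries. C4b and C3 depended on the WT-Sham libraries, and differed by 0.44 and 0.28 without WT-Sham1 and by 1.95 and 1.06 without WT-Sham2. Without WT-TAC2 2 of the 9 were called, C1qb (0.60, adjusted p = 0.0114 in limma) and C1s1 (0.94, adjusted p = 0.00958), with WT-TAC1 then the lone library of its group and 50.5% of all genes called.

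In Fat1 hearts TAC was set against sham in the same way. The genes did not differ beyond their spread: the log2 differences ran from -0.17 for C5ar1 to 0.14 for C1s1, and 0 of 9 were called, as was 0.00692% of all genes. The median of the 9 was 0.01 against 0.02 for all genes tested. C1qb (0.05, SE 0.21) and C1qc (0.07, SE 0.21) were higher without overlap, as were 26.8% of genes. C3 differed by -0.14 (SE 0.29) and C4b by -0.06 (SE 0.48). No gene of the 9 had an unadjusted p under 0.05.

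The effect of the transgene under pressure overload was asked by comparing Fat1-TAC with WT-TAC, which shares the WT-TAC libraries with the WT comparison above. All 9 genes were lower in Fat1-TAC, C4b the most, and C1s1 was called. C1s1 fell by 1.03 on the log2 scale (SE 0.20, adjusted p = 0.0997 in limma), to 0.484 times the WT-TAC mean, a call that lies just inside the threshold. Beside this 1 of 9, 1.39% of all genes were called lower. The other differences were -1.75 (SE 0.48, adjusted p = 0.151) for C4b, -1.33 (SE 0.29, adjusted p = 0.117) for C3, -0.67 (SE 0.25, adjusted p = 0.164) for Serping1, -0.58 to -0.63 for the C1q chains (adjusted p = 0.163 for each), -0.46 (adjusted p = 0.177) for C3ar1 and -0.35 (adjusted p = 0.308) for C5ar1. In FPKM, mean C3 stood at 0.399 and mean C4b at 0.300 times its WT-TAC level.

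None of the 9 genes overlapped between Fat1-TAC and WT-TAC, but 57.1% of all genes were lower in the same way, and 7 of 9 had an unadjusted p under 0.05 against 27% of all genes. The median was -0.63 for the 9 and -0.40 for all genes tested. Rescaling left 7 of the 9 lower without overlap by the median of ratios, with 26.0% of all genes, and 7 by quantile normalization, with 19.4%. By the median of ratios the median of all genes came to 0.00 and that of the 9 to -0.17, with C4b at -1.29, C3 at -0.86, C1s1 at -0.57, the C1q chains at -0.11 to -0.17, Serping1 at -0.20, C3ar1 at -0.14 and C5ar1 at 0.03. The call of C1s1 was kept under 2 of 18 alternatives and lost under 16, with an adjusted p of 0.118 to 0.469 where it was lost, and its difference stayed negative in all 18, between -0.57 and -1.22. Without WT-TAC1 0 of the 9 were called, as was 0.18% of all genes, and C1s1 differed by -1.0 (adjusted p = 0.187 in limma), C3 by -1.41 and C4b by -1.85. Without WT-TAC2 6 of the 9 were called: the C1q chains (-0.75 to -0.92), C1s1 (-1.06), C3 (-1.24) and C4b (-1.65), where 46.1% of all genes were called lower.

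Markers moved with this comparison. All 10 macrophage markers and all 8 fibroblast markers had lower means in Fat1-TAC than in WT-TAC, 9 and 8 of them without overlap. Their medians were -0.64 and -0.88 on the log2 scale, with 1 and 2 called. Of the 14442 genes tested 11266 had lower means, 57.1% were lower without overlap and 1.39% were called lower, with a median of -0.40. Cardiomyocyte markers were higher by a median of 0.56, with 0 of 8 called, and endothelial (0.44) and hypertrophy (0.33) markers were also higher. Medians were lower still for adipocyte (-3.67), lung epithelium (-3.17, 4 called), recruited monocyte (-1.47, 1 called), B and plasma cell (-1.19) and neutrophil markers (-0.95). Hepatocyte (-0.57) and red blood cell (-0.40) markers were also lower. Lung epithelium markers summed to 1494 and 3750 FPKM in WT-TAC and to 0.897 and 0.594 FPKM in Fat1-TAC. The part of any of these markers in the differences of the complement genes was not tested.

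**Figure D3:**
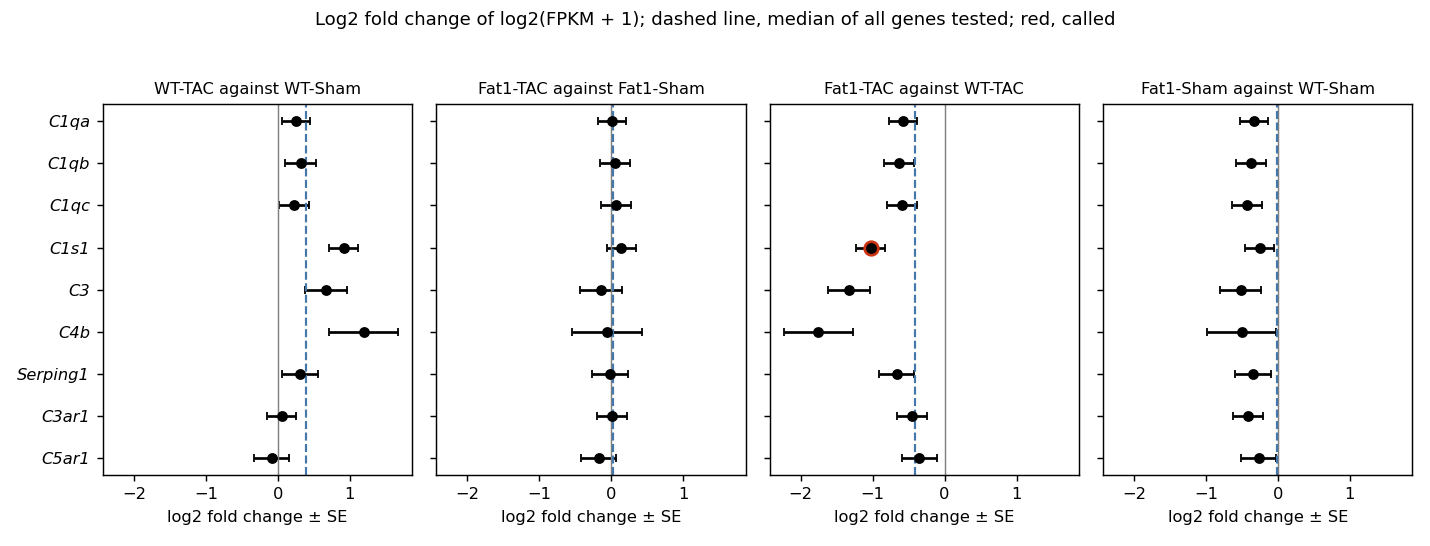
Log2 difference (limma on log2(FPKM + 1)) with its SE for each of the 9 genes in the 4 comparisons of groups, with a dashed line at the median of all genes tested and C1s1, the call, in red. C4b, C3 and C1s1 have the highest values in WT-TAC against WT-Sham and the lowest in Fat1-TAC against WT-TAC, whereas between the sham groups all 9 lie between -0.25 and -0.52 with the line at -0.01.

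Whether TAC acted differently in the 2 genotypes was tested by the difference of the TAC effects. All 9 differences were negative, but none passed: -1.25 (SE 0.68, adjusted p = 0.495 in limma) for C4b, -0.81 (SE 0.41, adjusted p = 0.495) for C3 and -0.77 (SE 0.28, adjusted p = 0.495) for C1s1, the 1 of 9 with an unadjusted p under 0.05, where 6.61% of all genes were lower at that level. The others ran from -0.04 for C3ar1 to -0.32 for Serping1. Of all genes 0.0692% were called, and the median of all genes, -0.37, lay below the -0.26 of the 9. By the median of ratios C1s1, C3 and C4b kept the sign and the other 6 turned positive. Over both genotypes TAC minus sham was 0.53 (SE 0.14, unadjusted p = 0.00733, adjusted p = 0.260 in limma) for C1s1 and 0.57 (SE 0.34) for C4b. There 0 of 9 were called, as were 0% of all genes, and 1 of 9 was higher at an unadjusted p under 0.05, as were 14% of all genes.

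The transgene without pressure overload was examined in the sham groups, which hold neither WT-TAC library. Fat1-Sham1, however, held lung epithelium RNA, with a marker sum of 82.4 FPKM against 0.401 FPKM in Fat1-Sham2 and 0.888 and 0.488 FPKM in WT-Sham. All 9 means were lower in Fat1-Sham, but 0 of 9 genes were called by limma, as were 0% of all genes, and 0 of 9 had an unadjusted p under 0.05, where 134 genes (0.928%) were lower and 46 (0.319%) higher at that level. The log2 differences were -0.43 (SE 0.21) for C1qc, -0.37 (SE 0.21) for C1qb, -0.33 (SE 0.19) for C1qa, -0.42 (SE 0.21) for C3ar1, -0.52 (SE 0.29) for C3, -0.50 (SE 0.48) for C4b, -0.35 (SE 0.25) for Serping1, -0.25 (SE 0.20) for C1s1 and -0.27 (SE 0.24) for C5ar1. C1qa, C1qb, C1qc and C3ar1 did not overlap, 4 of 9 where 16.5% of all genes were lower without overlap. The median was -0.37 for the 9 genes and -0.01 for all genes tested, a gap of -0.36 that was -0.35 by the median of ratios and -0.37 by quantile normalization. The gap was -0.44 without WT-Sham1 and -0.32 without Fat1-Sham1. It rested in part on WT-Sham2: without that library it was -0.21, with a median of -0.15 for the 9 and 0.06 for all genes. C4b (0.25) and Serping1 (0.05) then turned positive. The C1q chains (-0.15 to -0.29) and C3ar1 (-0.44) stayed negative without WT-Sham2. Macrophage markers were lower in Fat1-Sham for 10 of 10 means and fibroblast markers for 8 of 8, with 0 called, where 7729 of 14442 genes had lower means.

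Over both surgeries, a comparison of the genotypes added after the values were seen, 8 of 9 genes had an unadjusted p under 0.05 and were lower in Fat1, against 13.7% of all genes, and 0 of 9 were called by limma. The smallest adjusted p was 0.213, and 0.0415% of all genes were called. C3 differed by -0.92 (SE 0.20) and C4b by -1.13 (SE 0.34), C1s1 by -0.64 (SE 0.14), C1qc by -0.51, C1qb by -0.50, C1qa by -0.45, Serping1 by -0.51, C3ar1 by -0.44 and C5ar1 by -0.31. For C1qa, C1qb, C1qc and C3ar1 the highest of 4 Fat1 libraries was below the lowest of 4 WT libraries, where 4.56% of all genes were apart in this direction. C1qb ran up to 49.99 FPKM in Fat1 and from 55.9 FPKM in WT. C1qc ran up to 57.1 FPKM in Fat1 and from 66.1 FPKM in WT. C1qa ran up to 68.0 and from 70.3 FPKM, and C3ar1 up to 1.78 and from 2.44 FPKM. By the median of ratios C1qb (up to 55.1 and from 57.8) and C1qc (up to 63.4 and from 63.9) were apart, with 2.85% of all genes. By quantile normalization the 3 chains were apart, with 2.32% of all genes, and C3ar1 was not. Without WT-TAC1 the same number, 4, was apart as in the values as deposited, with 5.01% of all genes.

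The rest of the pathway was followed in 44 further complement genes, of which 36 were listed and 25 passed the filter of 1 FPKM in at least 2 libraries. None of the 25 was called by limma in any of the comparisons. Between Fat1-TAC and WT-TAC 12 were lower and 2 higher at an unadjusted p under 0.05, where 27% and 2.44% of all genes were, and the median was -0.60, close to the -0.63 of the 9. Between WT-TAC and WT-Sham 6 were higher and 1 lower (25.7% and 1.81% of all genes), with a median of 0.26. Between the sham groups 2 were lower and 0 higher (0.928% and 0.319% of all genes), with a median of -0.23. Between the TAC and sham libraries of Fat1 2 were lower and 0 higher (0.928% and 1.65% of all genes), with a median of -0.02.

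Among the initiators of the classical and lectin arms, 2 of 6 tested were higher in WT-TAC than WT-Sham at an unadjusted p under 0.05 in limma. In Fat1-TAC against WT-TAC 3 of 6 were lower at that level. Of all genes 25.7% and 27% passed it in these directions. C1ra, the protease C1r that cuts C1s, was at 5.83 and 9.98 FPKM in WT-Sham, 16.9 and 15.03 FPKM in WT-TAC, 7.47 and 6.14 FPKM in Fat1-Sham and 6.84 and 9.35 FPKM in Fat1-TAC. It therefore had the pattern of C1s1, and the ratio of C1s1 to C1ra stayed between 2.73 and 3.57. Its difference was 0.97 (SE 0.28) with TAC in WT and -0.91 (SE 0.28) between the TAC groups. Colec11, a lectin that recognises sugars, was at 3.80 FPKM in Fat1-Sham1 and 9.36 to 13.8 FPKM in the other libraries. C1rb, C1s2 and C4a, near copies of C1ra, C1s1 and C4b, were below 0.54 FPKM in every library, and since such copies can share reads, the values of each pair are uncertain in how reads were split.

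In the alternative arm Cfd, the protease adipsin that fat cells make, ran from 4.06 FPKM in Fat1-TAC1 to 413 FPKM in WT-TAC2. The sum of 5 adipocyte markers ran with it, from 2.17 FPKM in Fat1-TAC1 to 367 FPKM in WT-TAC2, and its part in the values of Cfd was not tested. Cfp, the properdin that steadies the C3-cutting enzyme, was at 14.1 and 17.99 FPKM in WT-Sham, 36.7 and 21.1 FPKM in WT-TAC, 11.8 and 11.4 FPKM in Fat1-Sham and 10.9 and 11.2 FPKM in Fat1-TAC. Like the C1q chains, it had all Fat1 libraries below all WT libraries, and its difference between the TAC groups was -1.26 (SE 0.27, adjusted p = 0.111 in limma). Cfb, the other protease of this arm, did not pass the filter.

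Of the terminal pathway, which forms the pore in target membranes, C7 was at 12.5 and 27.5 FPKM in WT-Sham, 18.1 and 23.8 FPKM in WT-TAC, 6.73 and 7.97 FPKM in Fat1-Sham and 6.95 and 9.26 FPKM in Fat1-TAC. Its genotypes did not overlap, with a difference of -1.23 (SE 0.36) between the sham groups and -1.27 (SE 0.36) between the TAC groups. C8g ranged from 2.84 to 6.62 FPKM.

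Among 8 regulators tested 0 passed an unadjusted p of 0.05 in limma between WT-TAC and WT-Sham. In Fat1-TAC against WT-TAC 2 of them were lower and 1 higher at that level, where 27% and 2.44% of all genes were. Clu, the abundant clusterin that binds the forming pore, ran from 468 FPKM in Fat1-TAC2 to 1071 FPKM in WT-Sham2. Of 7 receptors and binding partners, 4 were lower and 1 higher in Fat1-TAC than WT-TAC at an unadjusted p under 0.05 in limma. Between WT-TAC and WT-Sham 3 of the 7 were higher and 1 lower at that level, where 25.7% and 1.81% of all genes were. Calr, a chaperone that also binds C1q, was at 277 and 210 FPKM in WT-TAC and 145 and 175 FPKM in Fat1-TAC. C1qbp, a mainly mitochondrial protein that can bind C1q, ran from 60.3 to 80.8 FPKM and went the other way, with 61.9 and 64.3 FPKM in WT-TAC and 73.9 and 72.5 FPKM in Fat1-TAC.

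**Figure D4:**
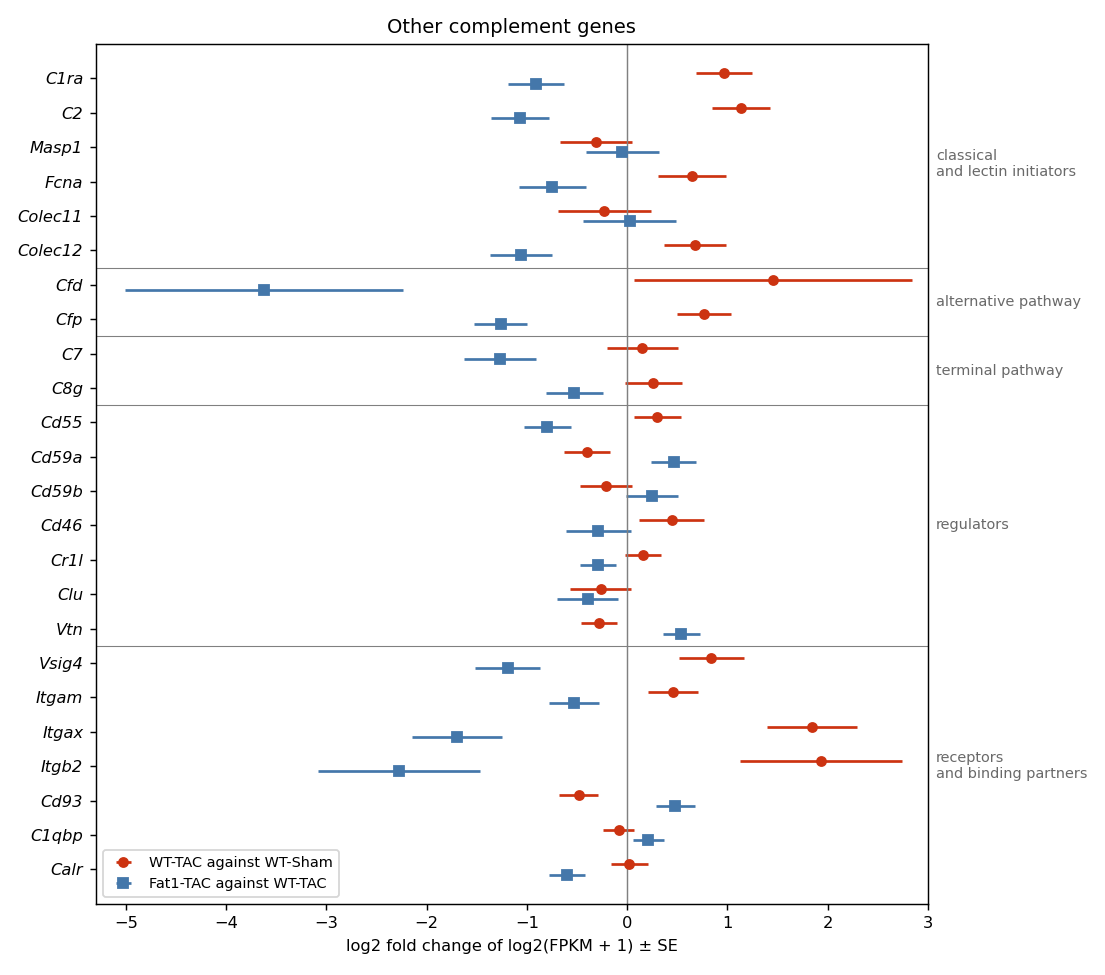
Log2 difference (limma on log2(FPKM + 1)) with its SE of the other complement genes tested that are shown, with WT-TAC against WT-Sham as circles and Fat1-TAC against WT-TAC as squares. The comparisons share the WT-TAC libraries, so opposite positions of circle and square are not independent, and none of the points passed the adjusted threshold.

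Genes whose values ran most like each complement gene were sought over the 8 libraries among 9457 or 9458 others with a mean of 5 FPKM or more, as Pearson's r of log2(FPKM + 1). C1qb and C1qc were nearest to each other (r = 0.993). C1qa was nearest to Fcgr2b (r = 0.981), an inhibitory receptor for antibodies, and then to Tor3a (r = 0.977) and C1qc (r = 0.973). C1qb was also near Fxyd5 (r = 0.993) and Cxcl16 (r = 0.985), and C1qc near F13a1 (r = 0.986), a coagulation factor subunit known from resident macrophages, and Tor3a (r = 0.979). C1s1 was nearest to Rarres2 (r = 0.993), Papss2 (r = 0.993) and Fn1 (r = 0.988), the last of which encodes fibronectin and was also among the 3 nearest to C4b (r = 0.973). C4b was nearest to Ak3 (r = 0.979) and Tmtc3 (r = 0.977), and C3 to Cdr2 (r = 0.982), Slc31a2 (r = 0.971) and Gda (r = 0.967). Serping1 was nearest to the matrix genes Prelp (r = 0.992) and Ecm1 (r = 0.991) and to Golim4 (r = 0.987). C3ar1 was nearest to Ccdc66 (r = 0.981), Nucb2 (r = 0.975) and Osmr (r = 0.972). C5ar1 had no neighbour as close, with Pea15a (r = 0.931), Cmklr1 (r = 0.910) and Spsb1 (r = 0.897). Among the 9 genes themselves r ran from 0.201 for Serping1 and C5ar1 to 0.993, and all 8 correlations of C5ar1 lay at 0.685 or below. All points share the same 8 libraries, and WT-TAC1 and the genotypes set much of the spread.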

How the data were processed

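RNA of 8 mouse heart libraries was analysed, 2 per group, grouped by the labels. The authors checked the reads, mapped them to the reference and deposited 1 FPKM value per gene and library. The submitters' processing notes name HISAT2 and GRCm38 (mm10), and the annotation and counting program are not given in the sources used here. The table lists 25929 genes, and 4 blank lines were dropped.

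Whole fragments were recovered from the FPKM steps with 1 whole length per gene and 1 total per library, within 0.02 fragments, for 100.0% of genes, and gave the depths. Counting errors cover counting only.

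Values were tested in limma (version 3.58.1, R 4.3.3) (lmFit, then eBayes with its trend option) after the transform log2(FPKM + 1). The 14442 genes that reached 1 FPKM in 2 or more libraries entered the fit, with all 8 libraries and 4 group means, and p was adjusted by Benjamini-Hochberg over all genes tested. Calls followed the study's cutoffs, a fold change of 1.5 either way and an adjusted p below 0.1. Fold changes on this scale understate those of low genes. In data simulated for Fat1-TAC against WT-TAC over 13593 genes, 184 of 192 genes changed 4-fold (95.8%) were called, 0 of them in the wrong direction, with 31 unchanged genes called. The simulation used a dispersion of 0.03 and rates from the libraries other than those of WT-TAC. It therefore does not give the power for smaller changes or for groups spread like WT-TAC.

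The genes and lists were chosen with earlier results of these data known. Named are the 9 genes, other complement genes that were called or are the 2 highest of their list by mean FPKM, the 3 genes most like each of the 9, and markers beside a result. A further gene that this rule names is not reported here. Mbl1, Mbl2, Fcnb, C8a, C8b, C9, C4bp and Cd55b were not listed under these symbols. C1rb, C1s2, C4a, Cfb, Cr2 and Vsig4 are named after their values were seen. Replicate numbers only number the samples. Alternatives were a pseudocount of 0.1, every gene above 0, a mean of 5 FPKM or more, the median of ratios, quantile normalization, no mitochondrially encoded genes, a replicate block, a fit of the compared groups alone, no moderation and leaving out each library. A voom fit in limma on the recovered fragments and the comparison of the genotypes over both surgeries were added after the data were seen. Promoters are from RefSeq (GRCm38.p6), which held 6 of the 9 genes: C1qb, C1qc, C1s1, C3, C3ar1 and C5ar1.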

Additional observations from a re-analysis of the deposited data

Results flagged for a closer look

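Among the 25 other complement genes tested, 2 had TAC and sham libraries apart in opposite directions in the 2 genotypes, while the test of that difference did not pass. Of all genes 52.5% were higher without overlap with TAC in WT and 21.5% were lower in Fat1. The share of all genes with both was not counted. Vsig4, a complement receptor of resident macrophages, was at 2.38 and 2.46 FPKM in WT-Sham and 5.20 and 5.02 FPKM in WT-TAC, but at 5.98 and 2.55 FPKM in Fat1-Sham and 1.57 and 1.79 FPKM in Fat1-TAC. Its log2 TAC effect was 0.84 in WT and -0.89 in Fat1, a difference of -1.73 (SE 0.46, unadjusted p = 0.00668, adjusted p = 0.495 in limma). The Fat1 effect of Vsig4 leaned on Fat1-Sham1 (5.98 FPKM), a library with lung epithelium RNA. Cfp had a log2 effect of 0.77 in WT, with both TAC libraries above both sham libraries, and was lower in both Fat1-TAC libraries than in Fat1-Sham (-0.07), a difference of -0.83 (SE 0.38, adjusted p = 0.495 in limma).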

How the results depend on the processing

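The direction of C1s1, C3 and C4b with TAC in WT, and between genotypes under TAC, was kept under every alternative run, whereas calls and the sign of small differences were not. Over all alternatives 999 values of single genes kept their direction and side of the threshold, 65 changed sign, 13 gained a call and 16 lost it. Of the medians and counts 326 were kept and 43 moved. A median was kept within 0.187 of its main value and a count within 1.5-fold, so a kept median near 0 could change sign. The limits of depth bear most on C3ar1 (122 to 238 fragments) and C5ar1 (118 to 181), and 2 libraries per group bear on every value. The labels' replicate numbers only number the samples: deviations of same-numbered libraries correlated at -0.135 to 0.0236. With the replicate number as a block the 1 call among the 9, C1s1, was lost (adjusted p = 0.160 in limma, 0.118 to 0.469 over the alternatives that lost it), and no other call among the 9 changed. A fit of only the groups compared was made for the 4 comparisons of pairs of groups. The cause of the changes below was not tested.

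Among the 9 genes 0 in place of 1 were called in Fat1-TAC against WT-TAC with a pseudocount of 0.1, a mean of 5 FPKM or more (which left 7 of the 9), the median of ratios, quantile normalization, no mitochondrially encoded genes, only the groups compared, the replicate block, no moderation and limma-voom. With every gene above 0 in a library, Cr2, a receptor for C3 fragments on B cells, became the 1 other complement gene called, at 0.93 with TAC in WT and lower in Fat1-TAC than in WT-TAC (-0.87). The median of the 9 came to -0.17 by the median of ratios and 0.053 by quantile normalization in WT-TAC against WT-Sham, and to -0.17 and -0.34 in Fat1-TAC against WT-TAC. In the difference of the TAC effects it came to 0.16 by the median of ratios, 0.0034 by quantile normalization and -0.05 without mitochondrially encoded genes. By the median of ratios it was -0.11 in TAC against sham over both genotypes and -0.26 in Fat1 against WT over both surgeries.

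By the median of ratios the log2 difference changed sign in WT-TAC against WT-Sham for C1qa (-0.22), C1qb (-0.15), C1qc (-0.24), Serping1 (-0.17) and C3ar1 (-0.28), in Fat1-TAC against Fat1-Sham for C1qa (-0.035) and C3ar1 (-0.014), in Fat1-TAC against WT-TAC for C5ar1 (0.027), in the difference of the TAC effects for C1qa (0.18), C1qb (0.16), C1qc (0.26), Serping1 (0.11), C3ar1 (0.27) and C5ar1 (0.27), in TAC against sham over both genotypes for C1qa (-0.13), C1qb (-0.073), C1qc (-0.11), Serping1 (-0.11) and C3ar1 (-0.15). By quantile normalization the log2 difference changed sign in WT-TAC against WT-Sham for C1qc (-0.027) and C3ar1 (-0.56), in Fat1-TAC against Fat1-Sham for Serping1 (0.0068) and C3ar1 (-0.070), in Fat1-TAC against WT-TAC for C3ar1 (0.15) and C5ar1 (0.26), in the difference of the TAC effects for C1qa (0.0034), C1qb (0.022), C1qc (0.11), C3ar1 (0.49) and C5ar1 (0.46), in TAC against sham over both genotypes for C3ar1 (-0.32), in Fat1 against WT over both surgeries for C5ar1 (0.029). Without mitochondrially encoded genes the log2 difference changed sign in WT-TAC against WT-Sham for C3ar1 (-0.078), in Fat1-TAC against Fat1-Sham for Serping1 (0.029), in the difference of the TAC effects for C1qc (0.052), C3ar1 (0.12) and C5ar1 (0.10), in TAC against sham over both genotypes for C3ar1 (-0.017).

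In WT-TAC against WT-Sham leaving out 1 library moved Serping1 from -0.084 to 0.70, C5ar1 from -0.33 to 0.16, C1qc from -0.049 to 0.51 and C3ar1 from -0.016 to 0.12. For WT-TAC against WT-Sham the median of the 9 ran from 0.080 to 0.51, calls among the 9 ran from 0 to 2 and calls among other complement genes ran from 0 to 9. In Fat1-TAC against Fat1-Sham leaving out 1 library moved C1qa from -0.088 to 0.11, Serping1 from -0.064 to 0.039, C3 from -0.37 to 0.087, C4b from -0.48 to 0.36, C3ar1 from -0.076 to 0.10 and C1s1 from -0.049 to 0.33. For Fat1-TAC against WT-TAC calls among the 9 ran from 0 to 6, the median of the 9 ran from -0.87 to -0.42 and calls among other complement genes ran from 0 to 15. In Fat1-Sham against WT-Sham leaving out 1 library moved C4b from -1.26 to 0.25 and Serping1 from -0.74 to 0.045. For Fat1-Sham against WT-Sham the median of the 9 ran from -0.53 to -0.15. In the difference of the TAC effects leaving out 1 library moved Serping1 from -0.71 to 0.072, C5ar1 from -0.33 to 0.17, C1qb from -0.55 to 0.022, C1qc from -0.44 to 0.12 and C3ar1 from -0.13 to 0.052. For the difference of the TAC effects calls among the 9 ran from 0 to 1 and calls among other complement genes ran from 0 to 8. In TAC against sham over both genotypes leaving out 1 library moved Serping1 from -0.048 to 0.34 and C3ar1 from -0.012 to 0.079. For TAC against sham over both genotypes calls among other complement genes ran from 0 to 5. For Fat1 against WT over both surgeries calls among the 9 ran from 0 to 5 and calls among other complement genes ran from 0 to 9.

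The highest counts came from leaving out WT-TAC2, after which WT-TAC1, assumed to vary like the other groups, stood alone for WT-TAC. Leaving out any of the other 7 libraries lost the call of C1s1, and of the 25 other complement genes called Cfd alone, without Fat1-TAC2, lower in Fat1-TAC than in WT-TAC (-6.16) and in Fat1 than in WT over both surgeries (-3.41).

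Over all genes, 133 were called higher and 2 lower in WT-TAC against WT-Sham and 5 and 201 in Fat1-TAC against WT-TAC. The counts were 33 and 0, and 2 and 31, with a pseudocount of 0.1, and 286 and 7, and 8 and 342, with every gene above 0. They were 9 and 0, and 1 and 14, at a mean of 5 FPKM or more, 23 and 0, and 1 and 19, by the median of ratios, and 11 and 0, and 1 and 12, by quantile normalization. They were 93 and 0, and 2 and 110, without mitochondrially encoded genes, 97 and 1, and 1 and 40, with only the groups compared, and 52 and 0, and 1 and 51, with the replicate block. They were 30 and 0, and 0 and 30, without moderation, 7 and 0, and 2 and 87, in limma-voom, and 6155 and 910, and 1079 and 6444, without WT-TAC2.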
